A study of Mus musculus with 30 samples.

Results

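Colon 26 is a mouse colorectal carcinoma line of BALB/c origin that grows as a tumor under the skin of mice with an intact immune system. The 8 tumors compared here were chosen by their size labels alone: 4 Colon 26 tumors of the 100 mm3 class and 4 of the 800 mm3 class, out of 30 libraries in the series. Their measured volumes were 102.9 to 124.88 mm3 in the small tumors and 807.93 to 963.18 mm3 in the large tumors. The question was which transcripts differed in level between small and large tumors, and how much of that difference moved with muscle carried along with single tumors.

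The study sequenced poly-A RNA of Colon 26 and CT-26, another BALB/c colorectal carcinoma line, as cultured cells (3 libraries each) and as tumors of 100, 400 and 800 mm3 (4 libraries each). The cells had been placed in the right flank of BALB/c females, whose age is not given in the sources used here. The labels describe dosing with anti-CTLA-4, anti-PD-1 and anti-PD-L1 antibodies in general terms, and no label of these 8 tumors names an agent. Nothing in the labels states that the 4 libraries of a group came from 4 mice, so the p-values measure the spread between these samples. The day and hour at which each tumor was taken are not given in the sources used here, so tumor size and collection time cannot be told apart.

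A whole tumor holds cancer cells, blood vessels, fibroblasts, immune cells and whatever neighboring tissue is cut out with it. As a flank tumor grows it stretches the skin above it and presses on the thin muscle sheet of the skin and on the body wall muscle below. In bulk RNA, fewer cells of a type and less RNA per cell cannot be told apart. Several transcripts described below respond quickly in many cell types: NF-kB is a transcription factor that induces cytokines and chemokines, the Period genes are repressors of the circadian clock, and the glucocorticoid receptor is the nuclear receptor that adrenal steroids bind.

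Libraries held 23597116 to 35677338 counts in the 100 mm3 tumors and 26897997 to 32805626 counts in the 800 mm3 tumors. The 10 most abundant genes took 5.75 to 6.41% of the counts in the small tumors and 6.04 to 7.36% in the large tumors. In all 12 pairs of replicates the counts differed by 9.86 to 34.2 times what sampling of reads gives, so no library was a repeat of another. Levels are given as CPM, the count of a gene divided by its library's total and scaled to a common library size, normalized over all 30 libraries, in the order of replicates 1 to 4. Epithelial markers, which a carcinoma would be expected to carry, were low: Epcam, a surface protein of epithelial cells, was at 0.0327, 0, 0.112 and 0.162 CPM in the 100 mm3 tumors and at 0.741, 1.12, 0.622 and 0.0366 CPM in the 800 mm3 tumors, and only 5 of 14 epithelial genes had counts enough to be tested. Vim, the intermediate filament of mesenchymal cells, stood at 7145 to 9244 CPM over the 8 tumors.

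Of 15404 genes tested, 205 (1.33%) were differentially expressed between 800 and 100 mm3, defined as an edgeR adjusted p of at most 0.1 and at least a 2-fold difference. Only 26 genes were higher in the large tumors (0.169% of genes tested) and 179 were lower (1.16%). The 800 mm3 tumors all lay above the 100 mm3 tumors in each of the 26 higher genes, against 6.79% of all genes, and all below them in 175 of the 179 lower genes, against 5.97% of all genes. These genes were called on the same tumors, so such separation is partly set by the call. The median absolute log2 fold change was 1.43 among the higher and 2.23 among the lower genes, while the median log2 fold change of all genes was -0.004. With the adjusted p alone, 1028 genes (6.67%) passed: 471 genes were higher (3.06%) and 557 lower (3.62%), so most of the differences that passed the test were under 2-fold.

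**Figure D1:**
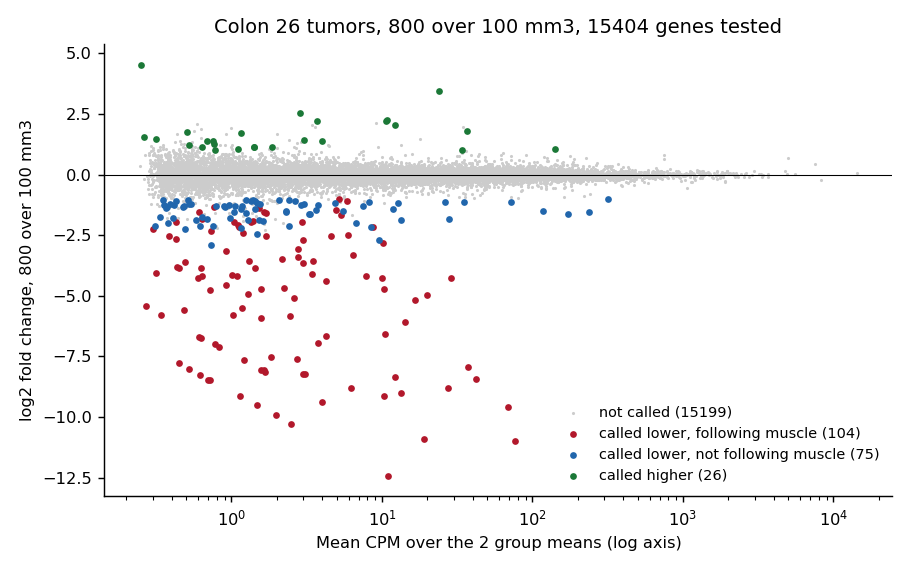
Log2 fold change of 800 over 100 mm3 Colon 26 tumors (vertical axis) against mean CPM (log axis) for the 15404 genes tested, with the 26 higher genes, the 104 lower genes that follow muscle at 400 mm3 and the 75 other lower genes marked. The genes that follow muscle reach the most negative fold changes, down to -12.41.

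Promoters of a few genes are shown first, as 120-base stretches of the mouse reference (RefSeq, build GRCm38.p6), 5′ to 3′ on the strand of the gene, taken from the 250 bases before an annotated start. The genes were chosen by hand and each stretch was taken because it holds the motif, so they do not stand for the other changed genes. Lif was not called at 2-fold. Capitals mark a match to a known factor's motif, searched on both strands. For the chemokine and cytokine genes Cxcl1, Il6 and Lif the capitals mark the NF-kB consensus, found in 7.25% of 32851 promoter windows of that length. For the clock gene Per1 they mark the E-box CACGTG, which the clock activators bind. It is held by 6.02% of windows and by 1 of the 2 windows of Per1. For the kinase gene Sgk1 they mark the full palindrome of the glucocorticoid response element, present in 3 of the 32851 windows and in 1 of the 6 windows of Sgk1. For the muscle genes Acta1 and Myh4 they mark the CArG box of serum response factor, found in 1.47% of windows.
Cxcl1, chr5:90891119-90891238, plus strand: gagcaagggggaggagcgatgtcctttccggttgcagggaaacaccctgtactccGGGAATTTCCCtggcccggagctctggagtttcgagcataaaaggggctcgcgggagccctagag
Il6, chr5:30012994-30013113, plus strand: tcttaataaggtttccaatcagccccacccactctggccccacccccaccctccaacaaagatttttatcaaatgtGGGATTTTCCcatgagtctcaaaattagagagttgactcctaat
Lif, chr11:4257335-4257454, plus strand: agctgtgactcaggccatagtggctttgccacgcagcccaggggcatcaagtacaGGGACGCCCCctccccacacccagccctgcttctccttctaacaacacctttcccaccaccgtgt
Per1, chr11:69098726-69098845, plus strand: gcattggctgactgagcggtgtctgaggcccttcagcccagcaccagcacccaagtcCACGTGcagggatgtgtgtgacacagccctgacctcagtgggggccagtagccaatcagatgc
Sgk1, chr10:21993648-21993767, plus strand: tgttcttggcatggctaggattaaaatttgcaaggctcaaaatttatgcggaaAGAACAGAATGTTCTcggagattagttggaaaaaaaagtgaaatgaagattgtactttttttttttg
Acta1, chr8:123894784-123894903, minus strand: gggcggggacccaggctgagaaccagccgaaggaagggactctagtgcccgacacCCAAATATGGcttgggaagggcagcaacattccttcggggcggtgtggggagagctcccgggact
Myh4, chr11:67237653-67237772, plus strand: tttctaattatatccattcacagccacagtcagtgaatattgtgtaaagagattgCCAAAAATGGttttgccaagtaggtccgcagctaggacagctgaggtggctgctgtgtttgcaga

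Among genes with a promoter window, the NF-kB consensus was found in 2 of the 12 higher genes and in 7 of the 53 lower genes that do not follow muscle and 12 of the 77 that do, against 8.23% of 27025 genes. The E-box was found in 0 of the 12, 9 of the 53 and 4 of the 77, against 6.86% of genes, and the CArG box in 0 of the 12, 1 of the 53 and 7 of the 77, against 1.62%. A match of letters is a description of the sequence and does not show that a factor binds there.

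The largest decreases were in skeletal muscle genes. All 24 genes of a skeletal muscle list passed the adjusted p in the direction of less RNA in the large tumors, and 23 of them were also at least 2-fold lower (1.16% of all genes were called lower). The median log2 fold change of the list was -6.61, with a range of -12.41 to -0.66. The smallest difference belonged to Eno3, the muscle form of enolase, which cultured Colon 26 cells also express. Summed over the list, the 100 mm3 tumors held 460.4, 2387, 303 and 529.9 CPM and the 800 mm3 tumors 77.1, 78.9, 70.3 and 67.9 CPM. Every small tumor lay above every large tumor, and replicate 2 of the small tumors stood far above the other 3.

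At 400 mm3 the same sum was 4673, 82.5, 90.3 and 66.8 CPM, so 1 tumor of that size held more muscle RNA than any other tumor in the series while the other 3 were near the 800 mm3 level. Cultured Colon 26 cells gave 169 to 175 CPM, most of it Eno3. Without Eno3 the sum was 215 to 2243 CPM at 100 mm3 and 7.31 to 8.62 CPM at 800 mm3. The list took 0.0307 to 0.247% of all counts in the small tumors, a small part of the RNA of any tumor. In a fit that also held the 400 mm3 tumors, whose spread of muscle RNA was wide, 0 of the 24 genes were called, and 3 were called with all 30 libraries in the fit.

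**Figure D2:**
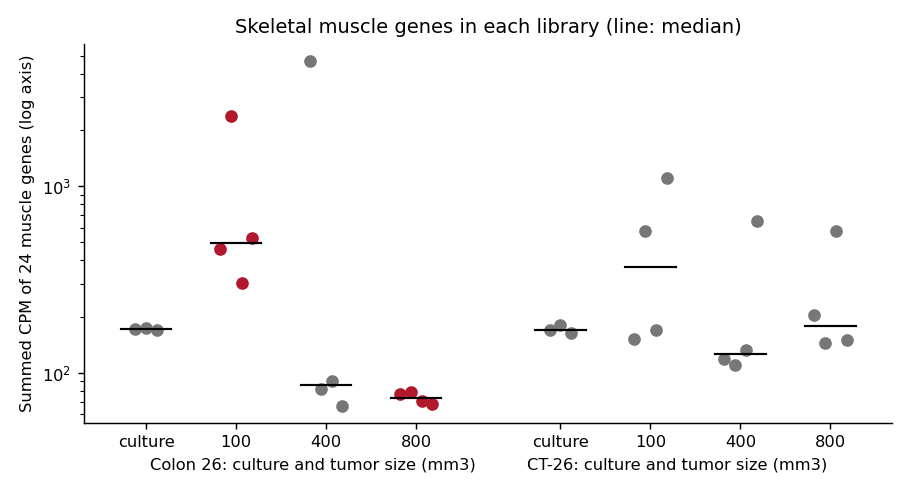
Summed CPM of the 24 skeletal muscle genes in each tumor (log axis), by model and size class, 1 point per tumor. The 4 Colon 26 tumors of 800 mm3 sit between 67.9 and 78.9 CPM, below all 4 of 100 mm3, and 1 of 4 Colon 26 tumors of 400 mm3 reaches 4673 CPM.

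Acta1, the actin of the skeletal muscle thin filament, was at 54.9, 363, 54.8 and 78.6 CPM in the 100 mm3 tumors and at 0.193, 0.207, 0.196 and 0.11 CPM in the 800 mm3 tumors. Its log2 fold change was -9.58 ± 1.05 (SE; adjusted p = 0.0046). The fast fiber myosins behaved in the same way: Myh1 went from 13 to 26 CPM in the small tumors to at most 0.11 CPM in the large ones (-9.14 ± 0.46, adjusted p = 7.1e-05), and Myh4 from 23.3 to 447 CPM to at most 0.11 CPM (-10.97 ± 1.49, adjusted p = 0.0094).

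Ckm, the creatine kinase that buffers ATP in muscle, was at 29.9, 223, 11 and 33.3 CPM in the small tumors and at 0.258, 0.502, 0.393 and 0.0366 CPM in the large tumors (-7.92 ± 1.25, adjusted p = 0.016). Pvalb, the calcium buffer of fast fibers, had 3115 counts over the 4 small tumors and 0 in all 4 large ones, which makes it at least 1070.0-fold lower with a floor of 3 counts over the group. Its call was lost without any of 5 tumors (adjusted p 0.111 to 0.153). The list's median was the same -6.61 with Pvalb at that bound.

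The 12 lowest genes outside the muscle list with enough counts were muscle genes as well. They included the Z-disc proteins Actn2, Myot, Xirp1 and Xirp2, the myosin-binding proteins Mybpc1 and Mybpc2, and Trdn, a calcium release protein of the sarcoplasmic reticulum. Actn2 was at 4.34, 6.52, 4.77 and 6.22 CPM in the small tumors, and 3 counts in all were found in the large ones, a ratio of 225 (95% counting interval 76.8 to 1096). Apobec2 and Eef1a2, both known for their expression in muscle, were at 0 in all 4 large tumors and were at least 174- and 229-fold lower. Des, the intermediate filament of muscle that stood in the pericyte and smooth muscle list, was the only member of that list called lower (-4.25 ± 0.47, adjusted p = 0.0047).

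The 400 mm3 tumor with high muscle RNA gave a way to sort the lower genes without using the 100 and 800 mm3 tumors. A gene was counted as following muscle where its CPM in that tumor was at least 2 times the highest of the other 3 tumors of 400 mm3 tumors, with 0.1 CPM added to both. Of the 179 lower genes, 104 (58.1%) followed muscle in this sense, against 2.39% of all genes tested. They comprised all 23 called genes of the muscle list and 81 of the 156 others. Of the 26 higher genes, 1 did (Rapsn, the receptor-clustering protein of the nerve-muscle junction). The sorting rests on 1 tumor, and a gene that did not pass it can still have some of its RNA from muscle.

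Several lower genes of known general function were among those that followed muscle. H19, an imprinted noncoding RNA, was at 9.44, 21.8, 19 and 21.1 CPM in the small tumors, at 0.774, 6.76, 1.28 and 1.13 CPM in the large tumors and at 53.7 CPM in the muscle-rich 400 mm3 tumor. Pdk4, the kinase that shuts off pyruvate dehydrogenase (-4.68 ± 0.87, adjusted p = 0.029), and the small heat shock proteins Hspb1 (-1.44 ± 0.24, adjusted p = 0.019) and Hspb7 (-3.64 ± 0.28, adjusted p = 0.00052) showed the same arrangement. H19, Pdk4 and Hspb1 were chosen after their values were seen. The call of H19 was lost without any of 5 tumors (adjusted p 0.101 to 0.122).

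The 75 lower genes that did not follow muscle made up 0.499% of the 15036 such genes tested, and their median absolute log2 fold change was 1.38. In 72 of them the 800 mm3 tumors all lay below the 100 mm3 tumors, against 5.97% of all genes. The genes were called on these same tumors, so such separation is partly set by the call. Without replicate 2 of the small tumors, the one with the most muscle RNA, 40 such genes were called. With the muscle sum as a covariate 1 was called (Per1), in a design where the muscle sum separates the sizes completely.

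Of the higher genes with enough counts to be named by rule, Lcn2 had the largest fold change. Lcn2, lipocalin-2, an iron-siderophore binding protein released in inflammation, was at 1.7, 1.89, 9.25 and 3.11 CPM in the 100 mm3 tumors and at 56.7, 36.3, 45.1 and 36.3 CPM in the 800 mm3 tumors. All large tumors lay well above all small ones, by 11-fold in the fit (log2 3.47 ± 0.47, adjusted p = 0.0094). At 400 mm3 it was at 3.48, 0.58, 3.66 and 10.9 CPM, close to the small tumors, and cultured Colon 26 cells had 29 to 29.8 CPM.

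Cxcl1, a chemokine that draws neutrophils, was at 0.718, 0.595, 1.49 and 0.525 CPM in the small tumors and at 5.58, 3.72, 4.19 and 5.85 CPM in the large tumors. The groups were far apart (2.53 ± 0.31, adjusted p = 0.0074), at levels of a few CPM. Il6, the cytokine that drives the hepatic acute-phase response, was at 0.457, 0.487, 0.596 and 0.606 CPM in the small tumors and at 1.58, 1.5, 2.06 and 2.01 CPM in the large tumors (1.72 ± 0.20, adjusted p = 0.0057). Sele, E-selectin, on which leukocytes roll along inflamed vessels, was at 4.47, 3.87, 4.7 and 5.86 CPM in the small and at 28.4, 14.4, 12.1 and 24.3 CPM in the large tumors (2.06 ± 0.27, adjusted p = 0.0088). Sele was also present in cultured Colon 26 cells, at 12.1 to 13.3 CPM, so its RNA in a tumor need not come from vessels.

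The calls of Lcn2, Cxcl1, Il6 and Sele were kept without each of the 8 tumors in turn. Among 27 chemokine genes tested, Cxcl1 was the only one called (0.169% of all genes were called higher). Ccl3, a chemokine released by macrophages, passed the adjusted p at under 2-fold (0.88 ± 0.23, adjusted p = 0.074). Among 16 inflammatory cytokine and growth factor genes, Il6 was the only one called. At the adjusted p alone 6 were higher (3.06% of all genes) and 0 lower (3.62%). Their median log2 fold change was 0.34, against -0.004 over all genes.

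**Figure D3:**
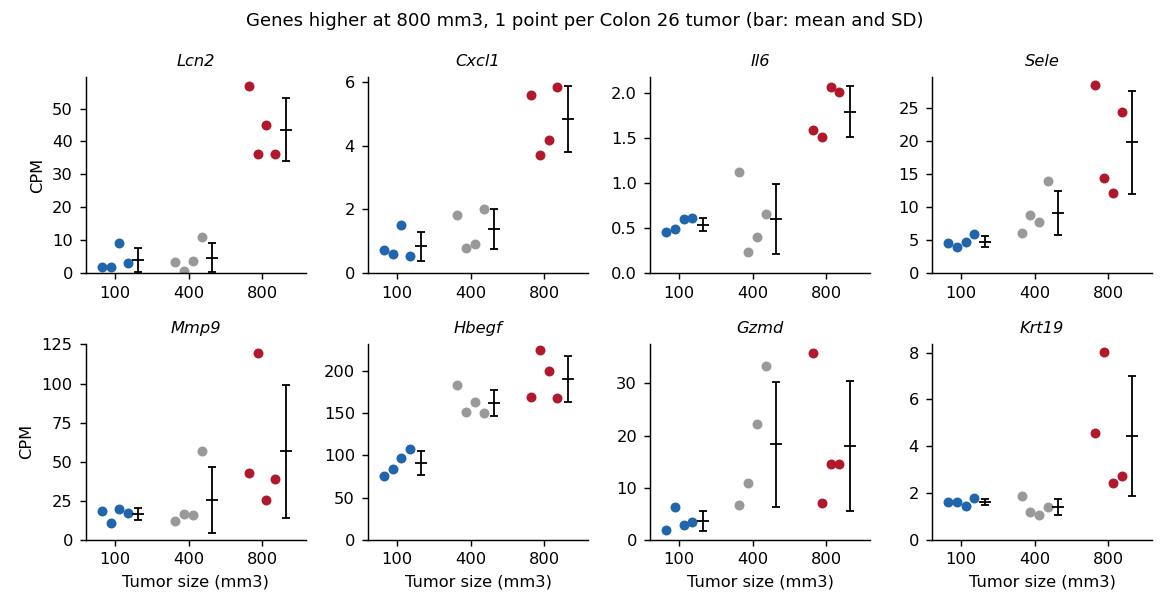
CPM of 8 genes higher in 800 mm3 than in 100 mm3 Colon 26 tumors, with the 400 mm3 tumors between them, 1 point per tumor and the mean and SD over 4 tumors. All 800 mm3 points lie above all 100 mm3 points in each panel, while the 400 mm3 points of Lcn2 (0.58 to 10.9 CPM) stay near the 100 mm3 level.

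The next 9 genes, none of them called at 2-fold, were chosen after their values were seen, Lif excepted, and stand for no list. Lif, an Il6 family cytokine, was at 27.2 to 29.8 CPM in the small and at 44.1 to 56.6 CPM in the large tumors (0.80 ± 0.07, adjusted p = 0.0016). Nfkbiz, a nuclear cofactor of NF-kB (0.84 ± 0.12, adjusted p = 0.0098), Ptgs2, the inducible cyclooxygenase (0.81 ± 0.14, adjusted p = 0.023), and Tnfrsf9, the costimulatory receptor 4-1BB (0.82 ± 0.13, adjusted p = 0.015), rose by similar amounts. Clcf1, another Il6 family cytokine, also rose (0.71 ± 0.08, adjusted p = 0.0046), as did the adhesion receptor Vcam1 (0.56 ± 0.09, adjusted p = 0.015), the NF-kB inhibitor Nfkbie (0.47 ± 0.10, adjusted p = 0.039) and the signaling adaptor Traf1 (0.48 ± 0.11, adjusted p = 0.057). Icam1, the other adhesion receptor examined, had a log2 fold change of 0.09 ± 0.23 (adjusted p = 0.87).

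Hbegf, heparin-binding EGF-like growth factor, a ligand of the EGF receptor, was at 75.2, 83.4, 97.1 and 108 CPM in the 100 mm3 tumors and at 169.7, 225, 199.9 and 168 CPM in the 800 mm3 tumors. Its log2 fold change was 1.05 ± 0.13 (adjusted p = 0.0082), which fell just under 2-fold without replicate 1 of the small tumors (0.97) or replicate 2 of the large tumors (0.96). The 400 mm3 tumors, at 150.2 to 184 CPM, were all above the small tumors. Ereg, epiregulin, another EGF receptor ligand, passed the adjusted p at 0.55 ± 0.09 (adjusted p = 0.022) and was chosen after its values were seen.

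A block of granzyme genes was also higher. Gzmd, Gzme and Gzmg encode serine proteases of activated killer lymphocytes and lie in a family of near-identical copies, so reads could have been divided among them and their values are uncertain one by one. Gzmd was at 1.83, 6.3, 2.87 and 3.47 CPM in the small tumors and at 35.9, 7.08, 14.6 and 14.5 CPM in the large tumors (2.27 ± 0.51, adjusted p = 0.051). Replicate 1 of the large tumors was the highest, and replicate 2 exceeded the highest small tumor by little. Gzme (2.20 ± 0.48, adjusted p = 0.049) and Gzmg (2.19 ± 0.56, adjusted p = 0.072) had similar fold changes.

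The granzyme calls depended on single tumors: Gzmd and Gzme were lost without replicates 1, 3 or 4 of the small tumors (adjusted p 0.101 to 0.135) and Gzmg without any of 6 tumors (0.105 to 0.176). Gzmf had a like log2 fold change of 2.12 ± 0.63 that was not called (adjusted p = 0.1 after rounding), and Gzmc was at 0.95 ± 0.32 (adjusted p = 0.14). The main effector genes of killer lymphocytes gave no call: Gzmb was at -0.09 ± 0.43 (adjusted p = 0.93) and Prf1, perforin, at 0.80 ± 0.48 (adjusted p = 0.38). Gzmf and Gzmc were chosen after their values were seen.

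Mmp9, a gelatinase found in neutrophils and macrophages, was at 18.4, 10.6, 19.4 and 17 CPM in the small tumors and at 42.8, 119.6, 25.7 and 38.7 CPM in the large tumors (1.79 ± 0.44, adjusted p = 0.066), and the call was lost without any of 6 tumors (adjusted p 0.103 to 0.159). It was the only called member of the neutrophil list and of the matrix protease list. The neutrophil alarmins S100a8 (0.30 ± 0.25, adjusted p = 0.54) and S100a9 (0.05 ± 0.27, adjusted p = 0.93) stood at 0.634 to 1.3 and 1.34 to 2.86 CPM over the 8 tumors. Mmp12, the macrophage elastase, passed the adjusted p at under 2-fold (0.96 ± 0.20, adjusted p = 0.043) and was chosen after its values were seen.

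The other named higher genes were of mixed roles. Krt19, a simple epithelial keratin, was at 1.45 to 1.78 CPM in the small and 2.42 to 8.03 CPM in the large tumors (1.45 ± 0.36, adjusted p = 0.066) and was not called without any of 6 tumors. It was the only epithelial gene called, and 5 were called without replicate 4 of the large tumors, the large tumor with the least Epcam. Slco4a1, an organic anion transporter (1.39 ± 0.36, adjusted p = 0.073), was lost without any of 5 tumors (adjusted p 0.129 to 0.178). Ptpn22, a phosphatase that restrains T cell receptor signaling, was at 20.7 to 25.5 CPM in the small and 33.1 to 58.7 CPM in the large tumors (1.02 ± 0.15, adjusted p = 0.012), and leaving out any of 3 tumors took it under 2-fold.

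Another 4 named higher genes (of 16 that carry a gene name rather than a predicted-gene label) were low in level and were chosen after their values were seen. Csn3, the milk protein kappa-casein, had 2 counts over the small tumors and 60 over the large ones, a ratio of 29.1 (95% counting interval 7.72 to 246), and was at 1.7 to 2.02 CPM in cultured cells. The complement components Hc (1.25 ± 0.27, adjusted p = 0.047) and C6 (1.13 ± 0.23, adjusted p = 0.04) were at 0.731 to 1.39 and 1.61 to 3.14 CPM in the large tumors, and lost their calls without any of 4 tumors (Hc, adjusted p 0.106 to 0.125) and without replicate 4 of the large tumors (C6, 0.1). In a complement list of 12 tested genes 0 were called, and the median log2 fold change was -0.06. Rapsn (1.16 ± 0.21, adjusted p = 0.027) had nearly the same values as the predicted gene Gm43621, and both may count the same reads.

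Among the lower genes that did not follow muscle, several belonged to the circadian clock. Per1, a repressor of the clock, was at 205, 178, 169 and 146 CPM in the 100 mm3 tumors and at 55.6, 62, 64 and 67.2 CPM in the 800 mm3 tumors. The groups were widely separated and the adjusted p was the lowest of all named genes that did not follow muscle (-1.50 ± 0.10, adjusted p = 0.0002). The 400 mm3 tumors, at 51.6, 35.5, 45.3 and 63.8 CPM, were all at the level of the large tumors, and cultured cells had 29.2 to 33.4 CPM.

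Dbp, a clock output factor that binds D-box elements, was at 70.1, 34.7, 31 and 36.7 CPM in the small and at 11.2, 7.91, 11.9 and 17.9 CPM in the large tumors (-1.83 ± 0.30, adjusted p = 0.018). Exons of Dbp and of the antisense gene Sphk2 overlap, and how strand was handled in counting is not given in the sources used here. Per2, the partner of Per1 in the repressor complex, was at 13.3 to 27.3 CPM in the small and 5.16 to 10.5 CPM in the large tumors (-1.17 ± 0.26, adjusted p = 0.05), and its call was lost without replicate 1 of either size.

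Of 11 clock genes tested, 3 were called lower (1.16% of all genes), and at the adjusted p alone 7 were lower (3.62% of all genes) and 1 higher (3.06%). Their median log2 fold change was -0.51, against -0.004 over all genes. The D-box factor Tef (-0.92 ± 0.17, adjusted p = 0.026), Per3 (-0.69 ± 0.17, adjusted p = 0.066) and the nuclear receptor repressors Nr1d1 (-0.49 ± 0.12, adjusted p = 0.057) and Nr1d2 (-0.51 ± 0.13, adjusted p = 0.077) fell by under 2-fold. Nr1d1 overlaps the antisense gene Thra. Arntl, the clock activator Bmal1, was the 1 member that passed the adjusted p as higher (0.61 ± 0.17, adjusted p = 0.09), with 14.7 to 23.8 CPM in the small and 28.2 to 41 CPM in the large tumors. Npas2, another activator, was at 1.02 ± 0.35 (adjusted p = 0.15), and the repressor Ciart at -0.30 ± 0.16 (adjusted p = 0.33). These last 7 genes were chosen after their values were seen.

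The next 5 genes, each known to be induced by glucocorticoids, were chosen after their values were seen and stand for no list. Sgk1, a serum- and glucocorticoid-induced kinase that controls ion transport, was at 339.9, 271, 277 and 155 CPM in the 100 mm3 tumors and at 92.6, 75.6, 78.6 and 93.4 CPM in the 800 mm3 tumors (-1.63 ± 0.20, adjusted p = 0.0067). Tsc22d3, the glucocorticoid-induced leucine zipper protein that dampens inflammation, was at 524, 345, 332 and 211 CPM in the small and at 147, 84.7, 118 and 139.7 CPM in the large tumors (-1.54 ± 0.25, adjusted p = 0.018). In both genes the small tumors varied more than the large ones and the groups did not overlap.

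Fkbp5, a co-chaperone of the glucocorticoid receptor (-0.56 ± 0.14, adjusted p = 0.064), and Klf9, a transcription factor (-0.61 ± 0.11, adjusted p = 0.029), fell by under 2-fold, and Cdkn1c, a cell cycle inhibitor, was at 0.04 ± 0.38 (adjusted p = 0.96). At 400 mm3 Sgk1 was at 82.1 to 117 CPM and Tsc22d3 at 82.5 to 176 CPM, below every small tumor in both cases. Sgk1, Tsc22d3, Per1 and Dbp kept their calls without each of the 8 tumors in turn.

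**Figure D4:**
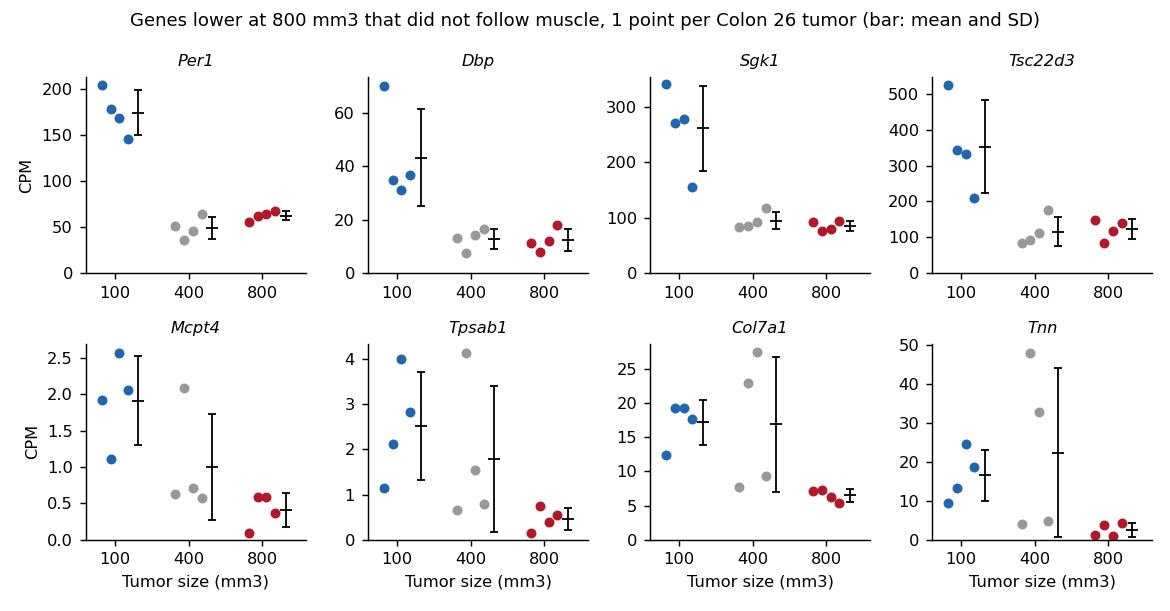
CPM of 8 genes lower in 800 mm3 than in 100 mm3 Colon 26 tumors and not following muscle, 1 point per tumor with the mean and SD over 4 tumors, at 100, 400 and 800 mm3. In the panels of Per1, Sgk1 and Tsc22d3 all 400 mm3 points lie below all 100 mm3 points, whereas Tnn reaches 48 CPM at 400 mm3, above all 100 mm3 points.

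Mast cell proteases were lower in the large tumors. Of 6 mast cell genes tested, 4 were called lower (1.16% of all genes), with a median log2 fold change of -1.88 for the list. The list did not fall as a whole: 1 of the 6 had a positive log2 fold change, of 0.13. Tpsab1, a tryptase, was at 1.14, 2.11, 3.99 and 2.83 CPM in the small and at 0.161, 0.738, 0.393 and 0.548 CPM in the large tumors (-2.44 ± 0.47, adjusted p = 0.033). Mcpt4, the chymase of connective tissue mast cells, was at 1.93, 1.11, 2.57 and 2.06 CPM in the small and at 0.0967, 0.59, 0.589 and 0.366 CPM in the large tumors (-2.20 ± 0.44, adjusted p = 0.037).

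In the fit with the 400 mm3 tumors Tpsab1 was not called. The tryptase Tpsb2 (-1.89 ± 0.49, adjusted p = 0.073) and the chymase Cma1 (-1.88 ± 0.54, adjusted p = 0.1) were called, and Cpa3, mast cell carboxypeptidase, was not (-1.57 ± 0.49, adjusted p = 0.12). Summed over the list, the small tumors held 13.1 to 21.9 CPM and the large tumors 7.16 to 10.3 CPM. Tpsab1 kept its call without each tumor, Mcpt4 lost it without replicate 4 of the large tumors, and the number of called mast cell genes fell to 1 without that tumor. The call of Tpsb2 was lost without any of 7 tumors (adjusted p 0.108 to 0.177) and that of Cma1 without any of 6 (0.159 to 0.217).

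Several matrix genes of connective tissue were lower, again with single-tumor differences. Col7a1, the collagen of anchoring fibrils beneath epithelia, was at 12.4, 19.3, 19.3 and 17.6 CPM in the small and at 7.12, 7.32, 6.22 and 5.3 CPM in the large tumors (-1.42 ± 0.16, adjusted p = 0.0052). The transmembrane collagens Col23a1 (-1.64 ± 0.31, adjusted p = 0.029) and Col13a1 (-1.23 ± 0.27, adjusted p = 0.05) made up the rest of the 3 called among 31 collagen genes (1.16% of all genes were called lower). The median log2 fold change of the 31 was -0.31. The call of Col13a1 was lost without any of 4 tumors (adjusted p 0.101 to 0.129). The main fibrillar collagens were not called, at -0.57 for Col1a1 (adjusted p = 0.13) and -0.30 for Col1a2 (adjusted p = 0.14).

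Of the tenascins, Tnn was at 9.5, 13.2, 24.6 and 18.8 CPM in the small and at 1.16, 3.84, 0.982 and 4.31 CPM in the large tumors (-2.69 ± 0.49, adjusted p = 0.026), and Tnc at 367 to 473 CPM and 156 to 306 CPM (-1.02 ± 0.21, adjusted p = 0.043). Lum, lumican, a proteoglycan of collagen fibrils, was the only fibroblast gene called (-1.11 ± 0.32, adjusted p = 0.099). The calls of Tnc and Lum were lost without any of 4 and 7 tumors. Postn, periostin, had a log2 fold change of -0.27 ± 0.19 (adjusted p = 0.47), and the summed fibroblast list overlapped between the sizes, at 8238 to 10589 CPM and 7704 to 11947 CPM.

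In replicates 2 and 3 of the 400 mm3 tumors, Tnn was at 48 and 32.7 CPM and Col7a1 at 23 and 27.5 CPM, above all small tumors. Col23a1, at 4.33 and 9.25 CPM there, was above all small tumors in replicate 3 and within their range in replicate 2. Crabp1, a retinoic acid binding protein, was at 14.1 to 31.8 CPM in the small and 4.55 to 7.52 CPM in the large tumors (-1.89 ± 0.26, adjusted p = 0.0098), and at 2.83, 27, 29.9 and 6.58 CPM at 400 mm3. In a fit with the 400 mm3 tumors, Tnn and Crabp1 were not called. Tnn, Tnc, Crabp1 and Postn were chosen after their values were seen.

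Ccn2, connective tissue growth factor, a target of YAP and TGF-beta signaling, was at 129, 108, 84.9 and 71.1 CPM in the small and at 41, 38, 47.1 and 54.6 CPM in the large tumors (-1.14 ± 0.18, adjusted p = 0.015). Its fold change came to -0.99 without replicate 1 of the small tumors, just under 2-fold. Tent5b, a noncanonical poly-A polymerase, was at 14.8, 13.1, 9.36 and 5.78 CPM in the small and at 2.16, 3.25, 2.52 and 2.89 CPM in the large tumors (-2.00 ± 0.28, adjusted p = 0.0098). At 400 mm3 both genes were at the level of the large tumors, with 33.7 to 51.3 CPM for Ccn2 and 2.73 to 3.25 CPM for Tent5b.

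Of the remaining lower genes, Crispld2, a secreted protein (-2.16 ± 0.37, adjusted p = 0.021), Cadm2, a neural adhesion molecule (-2.90 ± 0.41, adjusted p = 0.0098), and Sphk1, a sphingosine kinase (-1.12 ± 0.17, adjusted p = 0.015), were lower as well. These 3 genes, and likewise Ccn2 and Tent5b, were chosen after their values were seen.

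Of all genes tested 1.33% were called, so a list of this size holds few or none by that share. There were 0 called among 15 T cell, 14 cytotoxic and NK cell, 16 macrophage and 13 endothelial genes, with median log2 fold changes of 0.31, 0.17, -0.13 and -0.17. The regulatory T cell list had a median of -0.57 over 7 genes, and its lead gene Foxp3 was at 1.89 to 2.83 CPM in the small and 0.548 to 1.98 CPM in the large tumors (-1.18 ± 0.36, adjusted p = 0.11). Among 33 hypoxia and glycolysis genes the median was 0.08, and 0 were called. The 27 proliferation genes had a median of -0.16, with 8 lower by the adjusted p (3.62% of all genes) and none by 2-fold.

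The 26 interferon-stimulated genes had a median log2 fold change of -0.08, and 0 of them passed the adjusted p. Among 25 genes of Wnt signaling, the pathway that stabilizes beta-catenin, the median was -0.01 and 0 were called. Of the 5 Wnt ligands examined, Wnt10b passed the adjusted p as higher (0.31 ± 0.07, adjusted p = 0.062), and Wnt5a (-0.18), Wnt5b (0.18), Wnt6 (0.08) and Wnt10a (-0.10) did not (adjusted p of 0.32 or more). Over all 17 cell type marker sums, the groups failed to overlap for muscle, mast cells, the pericyte and smooth muscle list (213 to 277 CPM against 150 to 187 CPM) and the Schwann cell list (23.3 to 29.3 CPM against 21.5 to 23.2 CPM). In each the large tumors lay below, as they did in 5.97% of all genes. Des, which followed muscle, made up 21.4, 107, 49.7 and 41.6 CPM of the pericyte and smooth muscle sum in the small tumors. In the large tumors Des was at most 3.13 CPM. Replicate 3 of the small tumors had a sum of 213 CPM, 49.7 of it Des. Replicate 1 of the large tumors had 187 CPM, 3.13 of it Des. Without Des, the sizes therefore overlapped in that sum.

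The 400 mm3 tumors did not enter the fit of 800 against 100 mm3. Of the 26 higher genes, 5 (19.2%) had all 400 mm3 tumors above all 100 mm3 tumors, against 3.6% of all genes, and in 13 the 400 mm3 mean lay nearer to the 800 mm3 than to the 100 mm3 mean. Of the 179 lower genes, 30 had all 400 mm3 tumors below all small ones, against 2.66% of all genes. All 30 were among the 75 that did not follow muscle, a set from which genes high in 1 of the 400 mm3 tumors had been taken out, and in 39 of the 75 the mean lay nearer to that of the large tumors. Over all genes tested the mean lay nearer to the large tumors in 8936 of 15404, so neither count of nearer means stood above the rest of the genes. These comparisons share the 100 mm3 tumors with the rule that chose the genes.

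In a fit over all 12 Colon 26 tumors with the measured volume in place of size class, 63 of 15666 genes (0.402%) trended with volume at an adjusted p of at most 0.1 and at least 2-fold over 3 doublings. This fit shares 8 libraries with the comparison above. Per doubling of volume, Sele rose by 0.69 (adjusted p = 0.016), Cxcl1 by 0.86 (adjusted p = 0.026) and Hbegf by 0.36 (adjusted p = 0.017) on the log2 scale. Lcn2 rose by 1.16 (adjusted p = 0.076), while the slopes of Il6 (0.57, adjusted p = 0.11), Mmp9 (0.60, adjusted p = 0.14) and Krt19 (0.46, adjusted p = 0.18) did not pass. Per1 changed by -0.56 (adjusted p = 0.03), Sgk1 by -0.58 (adjusted p = 0.016) and Tent5b by -0.73 (adjusted p = 0.016), while Acta1 gave -1.18 with an adjusted p of 0.67. Mcpt4 changed by -0.75 (adjusted p = 0.064). The slopes of Tpsab1 (-0.76, adjusted p = 0.15), Col7a1 (-0.43, adjusted p = 0.21), Col23a1 (-0.49, adjusted p = 0.29), Tnn (-0.69, adjusted p = 0.44) and Crabp1 (-0.59, adjusted p = 0.22) did not pass.

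CT-26 tumors of 100 and 800 mm3 were the comparison most like this one, on separate tumors. There edgeR called 0 of 15298 genes, with 1610 (10.5%) at an unadjusted p under 0.05, and DESeq2 called 39. In Colon 26 the unadjusted count was 3187 (20.7%). The spread between replicates, as the biological coefficient of variation, was 0.193 in CT-26 and 0.137 in Colon 26. The muscle sum in CT-26 was 152 to 1103 CPM at 100 mm3 and 145 to 572 CPM at 800 mm3, so the sizes overlapped there.

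Of the 22 higher Colon 26 genes that were tested in CT-26, 14 were higher there and 5 reached an unadjusted p under 0.05 as higher, against 49.3% and 5.43% of all genes. Of the 64 lower genes not following muscle, 43 were lower in CT-26, against 50.7% of all genes. Of these 64, 10 reached an unadjusted p under 0.05 as lower (4.97% of all genes) and 2 as higher (5.43%). Of the 81 lower genes following muscle that were tested in CT-26, 76 were lower and 0 reached that p.

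**Figure D5:**
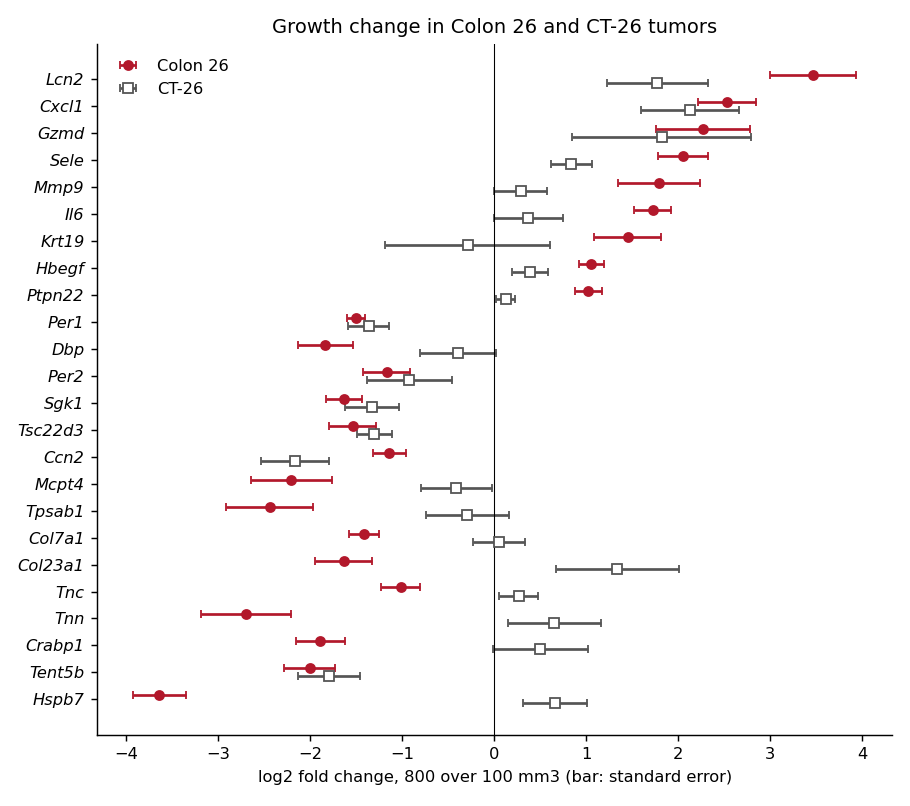
Log2 fold change of 800 over 100 mm3 with its standard error for 24 genes in Colon 26 and in CT-26 tumors. Per1, Sgk1, Tsc22d3, Tent5b, Ccn2 and Cxcl1 lie on the same side of 0 in both models, while Tnn (-2.69 and 0.65) and Crabp1 (-1.89 and 0.50) do not.

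Some of the genes named above had a log2 fold change of the same sign in CT-26, and the following were picked for their values there. In CT-26 the log2 fold change of Per1 was -1.36 ± 0.22, that of Tsc22d3 -1.30 ± 0.19 and that of Sgk1 -1.33 ± 0.29. Tent5b was at -1.79 ± 0.34, Ccn2 at -2.17 ± 0.37 and Cxcl1 at 2.13 ± 0.53. All 6 had an unadjusted p under 0.05, and none passed the adjustment over all genes (adjusted p 0.41 to 0.42). For Per1 the 4 CT-26 tumors of 100 mm3 were at 106, 122, 118 and 202 CPM and the 4 of 800 mm3 at 52.8, 43.7, 69.3 and 46.4 CPM, so the sizes did not overlap there either. Lcn2 (1.77 ± 0.55) and Sele (0.84 ± 0.22) had smaller values in CT-26 (adjusted p = 0.42 for both), and the differences between the models were not called (adjusted p 0.4 and 0.21).

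The test of the difference between the models, the interaction of model and size in edgeR, called 5 of 16238 genes (0.0308%). The count was 114 with DESeq2 and ran from 2 to 128 on leaving out 1 tumor, with 128 without replicate 1 of the 800 mm3 CT-26 tumors, and 51 and 24 without replicates 1 and 2 of the 100 mm3 CT-26 tumors. Hspb7, a small heat shock protein of muscle, fell in Colon 26 and was at 5.33 CPM on average at 100 mm3 and 8.45 CPM at 800 mm3 in CT-26, a difference of -4.31 ± 0.50 (adjusted p = 0.0045). Trim72, a muscle membrane repair protein, differed by -4.77 ± 0.80 (adjusted p = 0.088). Both followed muscle at 400 mm3, and the part of muscle RNA in this difference was not tested. The other 3 were the predicted genes Gm39822 (-2.49), Gm32618 (1.06) and Gm9042 (2.83). Gm9042 was near the floor, at a mean of 7.1 counts and group means of 0.0647 to 0.432 CPM, and was not tested in the Colon 26 comparison. Gm32618 was not called in Colon 26 (adjusted p = 0.23).

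No difference between the models was tested for a list. Of 26 interferon-stimulated genes, 21 reached an unadjusted p under 0.05 in CT-26, against 10.5% of all genes, with a median of -0.98. With no minimum fold change, 0 genes of any kind passed the edgeR adjusted p in CT-26. S100a8 was at 3.41 ± 0.83 in CT-26 (adjusted p = 0.42) and 0.30 ± 0.25 in Colon 26, a difference that was not called (adjusted p = 0.18). The mast cell list, with a median of -1.88 in Colon 26, had a median of -0.32 in CT-26 with 0 of 8 genes at p under 0.05, and the difference for Tpsab1 was not called (adjusted p = 0.28).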

How the data were processed

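Poly-A RNA of 30 libraries was sequenced in the study, and 8 Colon 26 tumors are compared here. The deposited estimated counts per gene had been computed by the authors in Array Studio against Ensembl release 78, and 23.0% of the values above 0 are not whole, so they were rounded. The deposited FPKM values of the same genes served the limma alternatives only. The submitters' processing notes name DESeq2 1.24.0. Aligner, build and strand setting are not given in the sources used here. Samples were grouped by their labels.

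The counts were tested with edgeR 4.0.16 (R 4.3.3), using the quasi-likelihood test, TMM factors, filterByExpr and Benjamini-Hochberg adjustment, on the 8 libraries alone. Genes were called at adjusted p values up to 0.1 where the difference was also 2-fold or more. The scripts were tested on simulated data. CPM values use TMM factors over all 30 libraries. A SE is that of the log2 fold change. With 4 tumors per group, an exact test of a single value could not go below p = 0.029. Intervals and floors of 3 counts cover counting error only. Alternatives were DESeq2 1.42.0, limma 3.58.1 on log2(FPKM + 1) and log2(FPKM + 0.1), other scalings, filters and thresholds, more libraries in the fit, a muscle covariate, and leaving out each tumor.

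Genes named by rule were the 12 most changed in each direction with a symbol, a mean of at least 100 counts in the higher group and no overlap, outside the muscle list, the called and the first 2 members of each of 40 lists, 5 Wnt ligands, and the leading genes of the interaction. The comparison and the lists were chosen with earlier results of these data known. Symbols matched 97.7% of 53431 gene identifiers. A few genes are not reported here.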

Additional observations from a re-analysis of the deposited data

Results flagged for a closer look

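In 7 of 138 groups of 4 tumors looked at, 1 tumor stood far from the other 3, and chance gives about 1 in 20. The summed muscle list was at 2387 CPM in replicate 2 of the 100 mm3 tumors, against 303 to 529.9 CPM in the other 3. Replicate 1 of the same size stood apart for 3 genes: Csn3 at 0.0653 CPM, where the others had 0, Dbp at 70.1 CPM, against 31 to 36.7 CPM, and Per2 at 27.3 CPM, against 13.3 to 15.6 CPM. Without that tumor Dbp kept its call and Per2 lost it. Ptger2, a prostaglandin E2 receptor, was at 3.54 CPM in replicate 2, and Tpsb2 at 3.95 CPM in replicate 3. Gzme was at 12.6 CPM in replicate 1 of the 800 mm3 tumors, against 2.98 to 4.61 CPM in the other 3.

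The change from 100 to 800 mm3 differed between Colon 26 and CT-26 by the edgeR interaction test in 5 genes, as log2 values Colon 26 minus CT-26: Trim72 at -4.77, Hspb7 at -4.31, Gm39822 at -2.49, Gm32618 at 1.06 and Gm9042 at 2.83. Gm9042 was near the floor, at a mean of 7.1 counts.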

How the results depend on the processing

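The number of called genes moved with the settings more than the direction of single genes did. The total of 205 became 309 with DESeq2 (190 shared), 90 with at least 10 counts in every library, 53 with all 12 Colon 26 tumors in the fit, 100 with all 30 libraries, 1028 with no minimum fold change, 62 with limma on log2(FPKM + 1), 21 with the muscle sum as a covariate and 100 with the genes that follow muscle left out, the last chosen after seeing the data. The 26 higher genes became 51 with DESeq2, 48 with no filter, 12 with all 12 tumors, 14 at an adjusted p of 0.05, 471 with no minimum fold change, 7 and 17 with limma on log2(FPKM + 1) and log2(FPKM + 0.1), and 0 with the covariate. The 179 lower genes became 72 with at least 10 counts, 41 with all 12 tumors, 77 with all 30 libraries, 557 with no minimum fold change, 55 with limma on log2(FPKM + 1) and 21 with the covariate. The 75 lower genes not following muscle became 46, 40, 446 and 18 under the 10 counts, all 12 tumors, no minimum and limma settings, 45 at an adjusted p of 0.05, 1 (Per1) with the covariate, and 40 without the tumor over 5 times the median muscle sum. All small tumors exceeded all large ones in muscle sum, so the covariate nearly repeats size. The log2 fold change of Cox6a2 was 0.46 with it. The cause of the other changes was not tested.

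Leaving out 1 tumor gave totals of 150 (without 100 mm3 replicate 2) to 290 (without 800 mm3 replicate 2), 13 (without 100 mm3 replicate 3) to 45 higher genes, 127 to 245 lower genes and 40 to 106 lower genes not following muscle, the highest always without 800 mm3 replicate 2. Without 100 mm3 replicate 1, 15 genes were higher, and without 100 mm3 replicate 3, 48 lower genes did not follow muscle. Of 79 named called genes, 48 kept the call without each tumor, 31 lost it at least once and 0 reversed. The CT-26 count of 0 became 39 with DESeq2 and 0 to 2 without 1 tumor. The 5 interaction genes became 114 with DESeq2, 3 with library size only, 2 at an adjusted p of 0.05, 13 with no minimum, and 2 to 128 without 1 tumor, 128 without CT-26 800 mm3 replicate 1. The 63 volume genes became 105 with DESeq2. No paired analysis was possible because the labels give the samples no replicate numbers.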
